A study of Mus musculus with 4 samples.

Results

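The neurons described here are the 95 cells that the authors' deposited annotation of the mouse spiral ganglion calls type II, divided by whether any molecule of Prph was counted in them. A cell with 1 or more raw Prph UMIs (unique molecular identifiers, each standing for 1 captured mRNA molecule) was placed on the Prph-positive side, and a cell with none on the Prph-negative side. This gave 58 positive and 37 negative cells of 6713 annotated neurons, the others being 2384 type IA, 1625 type IB, 2104 type IC and 505 putative spiral ganglion neurons. The measured value that chose the members was the Prph count of each cell, so Prph levels are given as a description with no test. UMIs were summed over the cells of each side within each mouse, which gave 8 sums, and the sides were compared as pairs within the 4 mice.

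All cells came from 4 wild-type male CBA/CaJ mice aged 9 weeks, with no treatment and no second genotype, so both sides share animal, library and handling. The core of the cochlea was dissected from 8 capsules, treated with the enzymes collagenase IV and papain, 30 min for each, and loaded for droplet capture 2.5 h after death. Each mouse was 1 library, and the study set out to describe the native classes of cochlear neuron. The comparison asks how alike the cells under the type II label are when they differ in the transcript most often used to recognise them.

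Type II spiral ganglion neurons are the small unmyelinated afferents that run along the outer hair cells, whereas type I neurons are large, myelinated and each contact an inner hair cell. Prph encodes peripherin, an intermediate filament protein of peripheral neurons that labels type II cell bodies in the adult ganglion. The cell bodies of both kinds are wrapped by satellite glia, and tissue dissociation can leave glial RNA with a neuron.

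The positive side held 10, 10, 20 and 18 cells in mice 1 to 4, with 145092, 81652, 215684 and 159489 UMIs, and the negative side 13, 5, 14 and 5 cells, with 401587, 50016, 174692 and 60586 UMIs. The cells were unequal in depth. Per mouse the median UMI count per cell was 14615, 8634.5, 10804.5 and 6932.5 on the positive side and 24352, 10319, 10701 and 10758 on the negative side, a mean of 10247 ± 3315 against 14032 ± 6882 (SD, n = 4 mice; exact two-sided sign-flip permutation p = 0.25). The negative side was deeper in every mouse except mouse 3. The deepest negative cell, in mouse 1, had 79498 UMIs and made up 19.8% of its sum. Of the negative cells, 5 lay above 28422 UMIs, the depth at percentile 99 of all annotated cells, and no positive cell did. No doublet caller was run, and the sources used here do not say how the authors treated doublets. Of all cell barcodes 26 occurred in more than 1 library, and 2 type II cells carried such a barcode. The sign-flip test over 4 mice has 16 arrangements and no p under 0.125, so it cannot pass 0.05.

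Prph (chromosome 15, 99055174 to 99058978, plus strand, on GRCm38 with GENCODE M21) was counted 497 times in the positive cells. Summed per mouse, its level was 620, 735, 695 and 1235 CPM (counts per 1e+06 UMIs) on the positive side. The mean was 821 ± 280 CPM (SD, n = 4). Mouse 4 stood above the others, and 1 of its cells alone held 103 Prph UMIs (3997 CPM) where the next highest cell held 23. Positive cells had a median of 6 Prph UMIs and 630 CPM, and the lowest was at 93.0 CPM. Just inside the threshold lay 3 cells with 1 Prph UMI, at depths of 3865 to 10747 UMIs, 5 cells with 2 and 8 cells with 3, and 50 cells had 3 or more. Just outside it lay all 37 negative cells, where the count of 0 allows up to 4.37 CPM over the whole side, and up to 7.47, 60.0, 17.2 and 49.5 CPM in mice 1 to 4 (3 counts of each total, counting error only).

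Shallow sampling can turn a positive cell into a negative one, and how often it did so here was not tested. At the median positive level of 630 CPM a negative cell of median depth (15248 UMIs) would hold 9.60 Prph UMIs and the shallowest (2411 UMIs) 1.52. At the lowest positive level, 93.0 CPM, they would hold fewer. When cells were thinned to 4867 UMIs, which left out 6 positive and 4 negative cells, between 44 and 51 of the 52 remaining positive cells (median 49) still showed Prph over 20 draws. Prph UMIs were also found at a low share in other neurons, and whether these come from free RNA was not tested. In type IA, IB and IC cells 1.17, 1.42 and 1.76% of cells had a Prph UMI, with summed levels of 0.939, 1.06 and 1.25 CPM, and in putative neurons 2.57% and 3.24 CPM. The median depth per mouse was 8628 to 19884 UMIs in the type I subtypes and 3459 to 8923.5 UMIs in putative neurons.

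**Figure D1:**
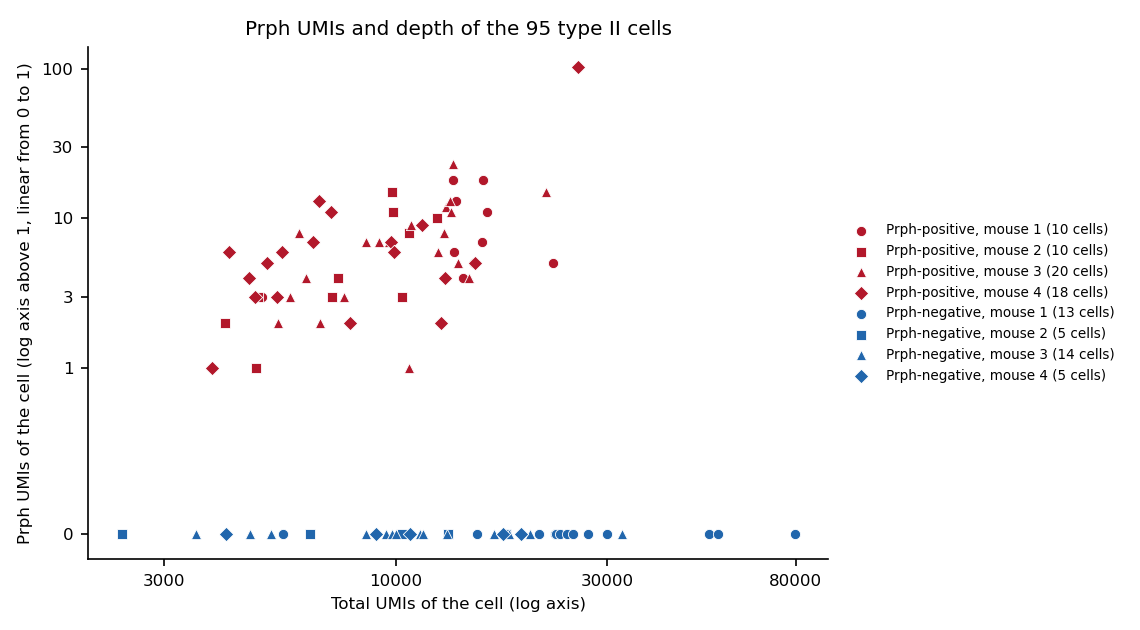
Each point is 1 of the 95 type II cells, with its total UMIs on a log axis against its Prph UMIs, coloured by side and shaped by mouse. The 58 positive cells run from 1 to 103 Prph UMIs and from 3865 to 25769 total UMIs. The 37 negative cells at 0 span 2411 to 79498 total UMIs.

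The sides differed in many genes. Of 2745 genes that passed the low-count filter, not counting Prph, 763 (27.8%) differed at an adjusted p under 0.05 (edgeR's quasi-likelihood test blocked by mouse, Benjamini-Hochberg adjustment, n = 4 mice per side). The positive side was higher in 365 genes (13.3% of those tested) and lower in 398 (14.5%), and 196 and 223 of these differed at least 2-fold. The median log2 difference over all genes tested was 0.01. In 272 genes every positive sum lay above every negative sum and in 321 every positive sum lay below, and of the called genes 217 and 267 were of this kind. DESeq2 called 314 genes. The count was 334 without mouse 1 and 367 without mouse 3, which hold the most negative cells, and 673 without mouse 2 and 811 without mouse 4. The filter keeps genes by their level in the sums, so genes low on both sides were not tested, and their UMIs are given without a test. A gene high on 1 side alone can pass the filter through that side.

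**Figure D2:**
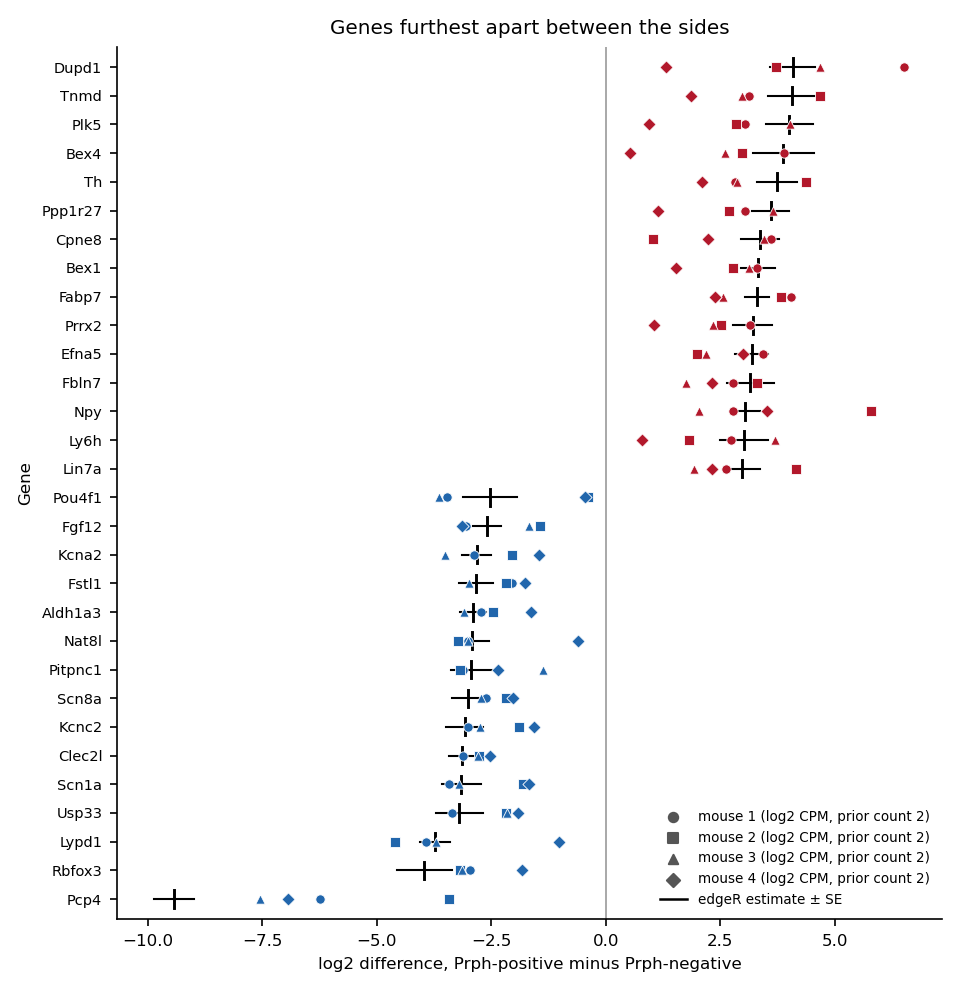
The log2 difference, positive minus negative, is plotted for the 15 highest and 15 lowest genes of the naming rule, as 1 point per mouse (log2 CPM with a prior count of 2) with the edgeR estimate and its standard error. All 4 mice lie on the same side of 0 for each gene by the rule, and mouse 4 lies nearest to 0 for Dupd1, Plk5 and Lypd1.

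The genes highest on the positive side were led by Dupd1, a dual-specificity phosphatase gene (chromosome 14, 21676537 to 21714576, minus strand). Its level was 2040, 1996, 2810 and 1624 CPM in the positive sums and 9.96, 140, 97.3 and 644 CPM in the negative sums of mice 1 to 4. The groups did not overlap, and the negative sum of mouse 4 was the highest of its side. The log2 difference was 4.07 ± 0.49 (SE; edgeR adjusted p = 1.70e-06). Of the positive cells 57 of 58 had a Dupd1 UMI, and of the negative cells 7 of 37 (18.9%, exact 95% interval 7.96 to 35.2%). With cells thinned to 4867 UMIs the counts were 50 of 52 and 4 of 33. In type I cells Dupd1 stood at 1.71 to 2.60 CPM.

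Myl1, which encodes a myosin light chain of fast skeletal muscle (chromosome 1, 66924295 to 66945404, minus strand), stood at 8726, 9528, 9380 and 6515 CPM in the positive sums and at 222, 2659, 1225 and 3235 CPM in the negative sums. No negative sum reached the lowest positive one, and the log2 difference was 2.69 ± 0.41 (edgeR adjusted p = 3.17e-05). A Myl1 UMI was found in 56 of 58 positive and in 26 of 37 negative cells, and after thinning in 50 of 52 and 19 of 33. Its median per cell was 8495 CPM in positive and 287 CPM in negative cells, so the sides differed in the level and in the presence of Myl1. Among the genes of sarcomere proteins only Myl1 and Tpm1, a tropomyosin, were tested, and Tpm1 was at 220 ± 50.1 against 210 ± 74.0 CPM.

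Th encodes tyrosine hydroxylase, the rate-limiting enzyme of catecholamine synthesis, and marks type II neurons in the mouse. Its level was 110, 245, 204 and 182 CPM in the positive sums and 4.98, 0, 17.2 and 33.0 CPM in the negative sums, from 109 against 7 UMIs. The log2 difference was 3.73 ± 0.44 (edgeR adjusted p = 1.44e-06), and 33 of 58 positive against 3 of 37 negative cells had a Th UMI. The thinned counts were 22 of 52 and 1 of 33. At this level and depth a cell holds few Th UMIs, so a cell without one is not shown to lack Th.

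The other genes among the 15 highest were Tnmd, Plk5, Bex4, Ppp1r27, Cpne8, Bex1, Fabp7, Prrx2, Efna5, Fbln7, Npy, Ly6h and Lin7a. Tnmd, which encodes the membrane protein tenomodulin, was at 198 ± 87.0 against 15.2 ± 23.5 CPM (SD, n = 4), a log2 difference of 4.07. Plk5, an atypical member of the polo-like kinases, was at 159 ± 62.7 against 15.1 ± 14.5 CPM, a log2 difference of 4.00. Efna5, which encodes the guidance ligand ephrin-A5, was at 237 ± 36.6 against 30.1 ± 18.7 CPM. All of these passed the threshold, with log2 differences of 2.98 (Lin7a) to 4.07. Several rest on few negative UMIs. Summed over the mice, the ratio of rates was 25.3 for Tnmd (111 against 5 UMIs, exact counting interval 10.5 to 79.6), 17.7 for Plk5 (93 against 6 UMIs, 7.83 to 49.4) and 15.8 for Bex4 (69 against 5 UMIs, 6.43 to 50.03). The log2 difference of Bex4 was 3.87, but 2.29 without mouse 1 and 5.91 without mouse 4, and with DESeq2 it did not pass (adjusted p = 0.0845). Bex1 and Bex4 belong to a family of similar X-linked genes, and the sources used here do not say how reads shared between such genes were counted. Nog, which encodes the secreted BMP antagonist noggin and is named from a list of type II genes chosen on these samples, was at 114 ± 38.5 against 33.2 ± 33.6 CPM (log2 difference 2.81 ± 0.54, edgeR adjusted p = 0.000415).

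The sides were then set beside the markers of type II neurons. Of the 10 type II neuron markers 5 were tested, and all 5 were higher on the positive side, with a median log2 difference of 1.92 beside 0.01 over all genes tested. They included Th, Plk5, Gata3 and Ngfr. Th and Plk5, with 7 and 6 UMIs in negative cells, passed the low-count filter through the positive side alone. The count of higher markers is thus no independent check of the label. Without the filter 7 of 9 markers were higher and none lower. The list of 10 summed to 2343, 1886, 2230 and 1812 CPM in the positive sums and to 426, 880, 492 and 792 CPM in the negative sums (higher in 4 of 4 mice, exact sign-flip p = 0.125, the smallest that 4 mice allow). Type I subtypes ranged from 232 to 268 CPM, so the negative sums lay between type I and the positive sums. Gata3, a transcription factor needed for spiral ganglion development, was at 731, 282, 584 and 451 CPM against 89.6, 180, 114 and 330 CPM (log2 difference 1.92 ± 0.30, edgeR adjusted p = 4.72e-05), and here the groups overlapped, because the positive sum of mouse 2 was under the negative sum of mouse 4. Ngfr, the low-affinity neurotrophin receptor, differed by 1.56 ± 0.22. The serotonin transporter gene Slc6a4 had 20 UMIs in positive and 0 in negative cells, and Calca, which encodes the peptide CGRP, 31 against 2, both too few to be tested. Etv4 went the other way, with 1 UMI in positive and 12 in negative cells, and Htr3a had 7 against 1, also not tested. Calcb had no UMI on either side.

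Of the 20 genes reported as highest in all type II cells in earlier work on these samples, 11 were tested and 10 were higher on the positive side. That list was chosen on these same cells, 58 of them positive, and is not independent evidence of the direction.

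The genes higher on the negative side were led by Pcp4, which encodes a small calmodulin-binding protein (chromosome 16, 96467606 to 96525793, plus strand). Pcp4 was counted once in the 58 positive cells, in mouse 4, and 920 times in the negative cells. The negative sums stood at 926, 120, 2307 and 2294 CPM, and the ratio of the summed rates, negative over positive, was 806 (exact counting interval 144 to 31880). Of the negative cells 17 of 37 had a Pcp4 UMI (45.9%, exact 95% interval 29.5 to 63.1%), 7 in mouse 1, 8 in mouse 3 and 1 each in mice 2 and 4. The sums of mice 2 and 4 thus come from 1 cell each. Pcp4 was at 4.64 to 5.37 CPM in the type I subtypes and 7.78 CPM in putative neurons.

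Lypd1 encodes a membrane-anchored modulator of nicotinic receptors and is the best-known marker of type IC neurons (chromosome 1, 125867622 to 125913101, minus strand). It stood at 75.8, 73.5, 64.9 and 75.2 CPM in the positive sums and 1332, 2059, 1002 and 165 CPM in the negative sums. The positive sums were close to one another, the negative sums spread widely, and none overlapped. The log2 difference was -3.73 ± 0.32 (edgeR adjusted p = 1.52e-08). Type IA, IB and IC stood at 110, 200 and 2953 CPM, so the negative mean of 1140 ± 786 CPM lay between types IB and IC. A Lypd1 UMI was found in 32 of 37 negative and 27 of 58 positive cells, and after thinning in 22 of 33 and 16 of 52.

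The remaining genes of the 15 lowest were Rbfox3, Usp33, Scn1a, Clec2l, Kcnc2, Scn8a, Pitpnc1, Nat8l, Aldh1a3, Fstl1, Kcna2, Fgf12 and Pou4f1, with log2 differences of -2.53 (Pou4f1) to -3.96 (Rbfox3). Rbfox3, which encodes the neuronal splicing factor known as NeuN, was at 5.86 ± 8.90 against 105 ± 22.5 CPM (4 against 69 UMIs, edgeR adjusted p = 2.90e-05). In type I cells it was at 23.4 to 139 CPM. Aldh1a3, a retinoic acid synthesis enzyme, was at 43.1 ± 7.14 against 311 ± 109 CPM, with 427 to 530 CPM in type I. Nat8l, the enzyme that makes N-acetylaspartate, was at 31.2 ± 17.7 against 245 ± 140 CPM, with 299 to 355 CPM in type I. Pou4f1, the transcription factor Brn3a of sensory neurons, was at 0, 12.2, 0 and 81.5 CPM against 125, 20.0, 143 and 116 CPM, so that the groups overlapped through mouse 2. Its call (log2 difference -2.53, edgeR adjusted p = 0.00222) was lost with DESeq2 (-3.66, adjusted p = 0.151) and without cells holding 3 or more Fabp7 UMIs (-2.02, edgeR adjusted p = 0.0793).

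Of the 15 type I neuron markers 6 were tested and all 6 were lower on the positive side, with a median log2 difference of -1.71. They included Lypd1, Pou4f1, Calb2, Pvalb and Tubb3. The list summed to 3674, 3160, 3116 and 3392 CPM in the positive sums and 11477, 7118, 7282 and 4605 CPM in the negative sums (lower in 4 of 4 mice, exact sign-flip p = 0.125). Calb2, which encodes calretinin, dominated the spread of the negative sums, at 565, 490, 658 and 276 CPM against 3755, 360, 1757 and 380 CPM. Its groups overlapped and its call (log2 difference -1.33, edgeR adjusted p = 0.00311) was lost without mouse 1 (-0.73, edgeR adjusted p = 0.0900) and with DESeq2 (-1.05, adjusted p = 0.344). Without mouse 1, without mouse 3 or with DESeq2, 3 of the markers passed the threshold. Pvalb, for parvalbumin, was at 2192 ± 236 against 3600 ± 739 CPM. Slc17a7, the vesicular glutamate transporter VGLUT1 of type I neurons, was not tested. It had 22 UMIs in positive and 168 in negative cells, or 35.1 ± 7.35 against 185 ± 102 CPM, beside 379 to 467 CPM in type I. Prox1 was at 5.04 ± 6.61 and 7.66 ± 11.8 CPM on the sides and at 76.2 to 83.7 CPM in type I, so by this marker the negative cells were not close to type I. Of the other untested markers Rxrg was higher on the positive side, at 47.8 ± 20.3 against 6.78 ± 8.37 CPM (30 against 7 UMIs). Cacna1b was at 32.4 ± 6.92 against 17.9 ± 15.6 CPM (20 against 11 UMIs). Calb1, Epha4, Scn4b, Runx1 and Grm8 had lower means on the positive side. Without the low-count filter 7 of 15 markers were lower and 1 was higher.

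**Figure D3:**
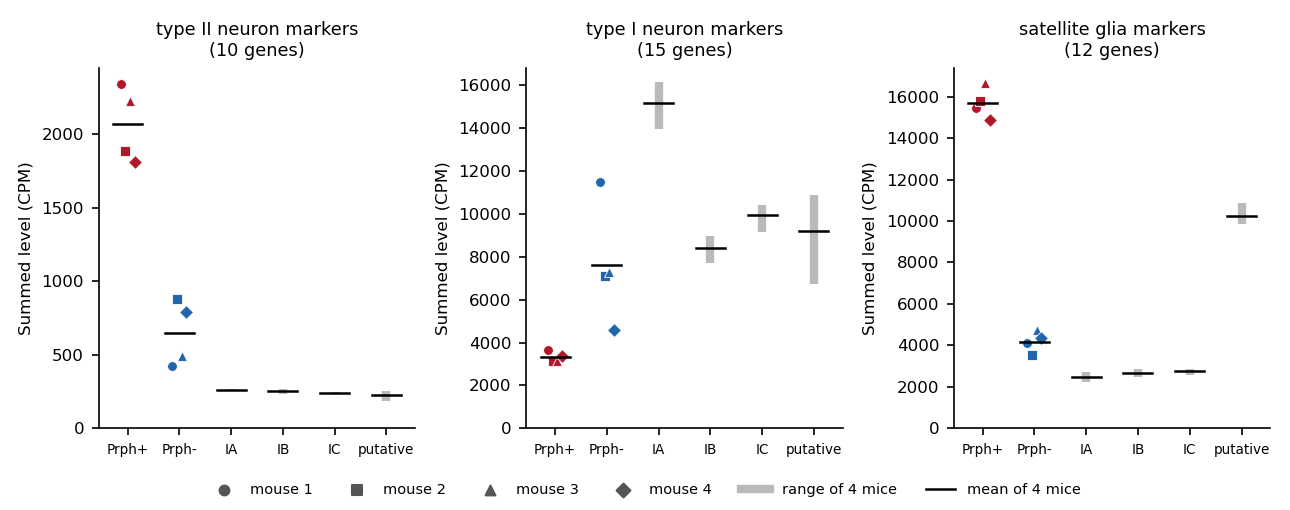
The panels show the summed CPM of type II, type I and satellite glia markers, with 1 point per mouse for the positive and negative sides and the range and mean over mice for types IA, IB and IC and putative neurons. For type II markers the negative sums (426 to 880 CPM) lie between type I and the positive sums, for type I markers they reach from 4605 to 11477 CPM, and for satellite glia markers the positive sums (14879 to 16663 CPM) are the highest group.

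Satellite glia markers moved with the sides. Of 12 such markers 8 were tested, 6 were higher on the positive side and none lower, with a median log2 difference of 1.16. The list summed to 14879 to 16663 CPM in the positive sums, 3519 to 4763 CPM in the negative sums, 2245 to 2881 CPM in type I and 9876 to 10889 CPM in putative neurons. Apoe, a lipid carrier made by satellite glia, was at 11193, 11035, 12416 and 11462 CPM against 2610, 1580, 2816 and 2558 CPM (log2 difference 2.29 ± 0.22, edgeR adjusted p = 1.29e-07). Fabp7, a fatty acid binding protein of glia, was at 1136 ± 222 against 124 ± 70.0 CPM, and Ednrb, an endothelin receptor, at 157 ± 17.6 against 21.3 ± 11.2 CPM. Sox10, a glial transcription factor, had 18 against 21 UMIs, Sox2 36 against 47 and Cdh19 2 against 3, too few to be tested. No marker of the list was at 0 on either side. The signal was uneven over cells, with a median of 5879 CPM and an upper quartile of 30710 CPM per positive cell against a median of 2630 CPM per negative cell.

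Cells with 3 or more Fabp7 UMIs made up 30 of 58 positive and 8 of 37 negative cells, or 49.2% ± 12.6 against 24.2% ± 10.8 per mouse (SD, higher in 4 of 4 mice, exact sign-flip p = 0.125). Without these cells 330 genes differed between the sides. None of the 6 satellite glia markers then tested passed, Apoe differed by 0.55 (edgeR adjusted p = 0.0912) and Dbi by 0.10 (edgeR adjusted p = 0.765). Several neuronal genes still passed, at 4.53 for Dupd1, 2.59 for Myl1, 2.18 for Gata3, 1.69 for Ngfr and -3.90 for Lypd1, with edgeR adjusted p of 0.0193, 0.026, 0.0123, 0.00312 and 0.00143. Other neuronal genes lost their call there, with log2 differences of -2.02 for Pou4f1, -1.50 for Gria2, -0.89 for Ntrk2 and -0.67 for Chga and edgeR adjusted p of 0.0793, 0.0557, 0.0594 and 0.188. Th, Plk5, Tnmd and Npy fell under the low-count filter there.

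Markers of other cell types were mostly low or overlapped between the sides, with Gldn and Npy as the exceptions among the tested genes that were higher on the positive side. Of 7 tested Schwann cell and myelin markers 1 was higher and 1 lower, near the 13.3% and 14.5% of all genes tested. Gldn, which encodes gliomedin of the node of Ranvier, was the higher one, at 438 ± 21.9 against 97.5 ± 28.6 CPM. The list summed to 2533 to 4213 CPM and 2373 to 4717 CPM. Fibroblast markers summed to 320 to 855 against 297 to 820 CPM, red blood cell markers to 325 to 1856 against 343 to 1898 CPM, and none of their tested genes passed, though Coch, the fibroblast gene tested, passed without mouse 3 (log2 difference 1.03, edgeR adjusted p = 0.0308). Hair cell markers summed to 32.5 to 62.0 against 24.9 to 80.0 CPM, supporting cell and sulcus markers to 92.7 to 345 against 109 to 200 CPM, macrophage markers to 55.6 to 113 against 28.6 to 116 CPM and vascular markers to 41.7 to 135 against 20.0 to 42.3 CPM (higher in 4 of 4 mice), with no gene tested. Of the 5 sympathetic neuron markers present in the tables only Npy had a UMI on either side, and the others were at 0. Through Npy the list summed to 379 to 674 CPM on the positive side and to 0 to 85.9 CPM on the negative side (higher in 4 of 4 mice).

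The cytoskeleton list, which holds the family of Prph itself, went both ways, with 12 of 28 tested genes higher and 8 lower and a median log2 difference of 0.03. The neurofilament genes Nefl, Nefm and Nefh and the related Ina and Vim were chosen after their values were seen, as the kin of peripherin. Nefl, the light neurofilament subunit, was at 944, 1029, 1062 and 1235 CPM in the positive sums and 2413, 1519, 2009 and 1585 CPM in the negative sums. No positive sum reached a negative one. Its log2 difference was -0.82 ± 0.20 (edgeR adjusted p = 0.00335), that of Nefm -1.07 ± 0.23 and that of Nefh -0.997 ± 0.194. Positive cells thus held Prph with less of these neurofilament transcripts, though Nefl was found in every cell of both sides. The annotated spans of Nefl and Nefm overlap on opposite strands, and the sources used here do not say whether counting used strand. Ina, for internexin, was at 194 ± 36.6 against 194 ± 71.9 CPM and did not pass (log2 difference -0.11 ± 0.23, edgeR adjusted p = 0.783). Vim, for vimentin, was at 128 ± 29.8 against 61.8 ± 10.4 CPM (edgeR adjusted p = 0.0475).

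Among other cytoskeletal genes, Dst, a large linker protein of neuronal filaments, was at 126 ± 35.9 against 490 ± 210 CPM (log2 difference -1.98 ± 0.25, edgeR adjusted p = 3.54e-06). Marcks, an actin-regulating kinase substrate, was at 140 ± 21.9 against 41.6 ± 25.8 CPM and Tmsb10, an actin-binding thymosin, at 1364 ± 352 against 485 ± 236 CPM. Tuba1a, an alpha-tubulin chosen after its values were seen, was at 2419 ± 350 against 903 ± 350 CPM, and Tubb2b, a beta-tubulin, at 95.8 ± 32.7 against 44.0 ± 41.1 CPM. The sums of Tubb2b overlapped, and its call (log2 difference 1.76) was lost without mouse 1 (1.09, edgeR adjusted p = 0.210) and with DESeq2 (adjusted p = 0.0865).

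Most tested potassium channel genes were lower on the positive side. Of 8 tested 7 were lower and 1 higher, with a median log2 difference of -1.46, and without mouse 3 the lower count was 4 of 7 tested. Genes high on the negative side alone can pass the low-count filter through it, so these 8 do not stand for the family. With the filter off 14 of 34 were lower and 1 higher. Kcna2, a low-threshold Kv1 subunit that limits repetitive firing, was at 34.5, 49.0, 23.2 and 87.8 CPM against 331, 240, 395 and 264 CPM. The groups stood far apart, at a log2 difference of -2.82 ± 0.32 (edgeR adjusted p = 1.05e-06). Kcna2 was seen in 20 of 58 positive and 30 of 37 negative cells, and after thinning in 7 of 52 and 25 of 33.

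Kcnc2, a high-threshold Kv3 subunit of the kind that lets a neuron repolarise quickly, was high neither in positive cells nor in type I cells. It was at 13.8, 12.2, 18.5 and 25.1 CPM in the positive sums, 199, 80.0, 195 and 99.03 CPM in the negative sums and between 0.619 and 8.82 CPM across type I subtypes. The log2 difference between the sides was -3.08 ± 0.40 (edgeR adjusted p = 4.15e-06). Kcnc4, a further Kv3 gene that type I cells hold at very low levels, was higher on the positive side, at 132 ± 31.8 against 68.2 ± 60.9 CPM beside 0.414 to 0.561 CPM in type I. Its groups overlapped through mouse 4, and its call (log2 difference 1.69, edgeR adjusted p = 0.00912) was lost without mouse 1 (0.86, edgeR adjusted p = 0.259), without mouse 3 (1.37, edgeR adjusted p = 0.104) and with DESeq2 (adjusted p = 0.0954). It was also lost with Prph called at a fixed depth (edgeR adjusted p = 0.242) and without the deepest cells (edgeR adjusted p = 0.0915).

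Of 7 tested sodium and HCN channel genes 5 were lower and 1 higher, with a median log2 difference of -1.50, and 3 were lower without mouse 1 or without mouse 3. With the low-count filter off 5 of 14 were lower and 1 higher, with a median of -0.80. Scn1a, with 12 UMIs in positive cells, passed that filter through the negative side alone. Scn1a, an axonal sodium channel, was at 6.89, 36.7, 9.27 and 37.6 CPM against 194, 160, 189 and 149 CPM (log2 difference -3.15 ± 0.42, edgeR adjusted p = 5.80e-06). It was seen in 10 of 58 positive and 30 of 37 negative cells, and after thinning in 2 of 52 and 26 of 33. Scn8a, the sodium channel of mature nodes of Ranvier, was at 22.8 ± 9.00 against 183 ± 90.3 CPM. Hcn2, a pacemaker channel, was at 29.2 ± 11.6 against 114 ± 38.7 CPM. In these genes the negative means lay near type I, where Scn1a was at 144 to 152 CPM, Scn8a at 226 to 237 CPM and Hcn2 at 126 to 169 CPM.

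Scn9a, the sodium channel of unmyelinated sensory axons, went the other way, at 82.7, 171, 111 and 150 CPM against 24.9, 20.0, 28.6 and 82.5 CPM (log2 difference 1.70 ± 0.38, edgeR adjusted p = 0.00154). Only the positive sum of mouse 1 came close to a negative sum, that of mouse 4. The gene was nearly absent from type I, at 0.866 to 2.35 CPM. Of 15 tested genes of the node of Ranvier and paranode 9 were lower on the positive side and 1, Gldn, higher, with a median log2 difference of -1.19. With the low-count filter off 12 of 22 were lower and 1 higher. Of 4 tested calcium channel genes 1 was higher, too few to set against the 13.3% of all genes tested. It was Cacna2d2, an auxiliary subunit, at 88.9 ± 21.6 against 42.2 ± 34.8 CPM. Its call was lost with DESeq2 (adjusted p = 0.135) and without the deepest cells (edgeR adjusted p = 0.0503).

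The synaptic release list had 18 of 27 tested genes lower on the positive side and 1 higher, with a median log2 difference of -0.93. Without mouse 1 it had 8 of 25 lower, and without cells holding 3 or more Fabp7 UMIs 7 of 21. With the low-count filter off it had 21 of 47 lower and 2 higher. Syt2, the fast calcium sensor of release, was at 27.6, 36.7, 74.2 and 37.6 CPM against 276, 120, 332 and 198 CPM (log2 difference -2.44 ± 0.31, edgeR adjusted p = 3.07e-06). Vamp1, a vesicle SNARE, was at 86.1 ± 16.7 against 354 ± 123 CPM, and Syt3 at 31.6 ± 20.9 against 118 ± 30.7 CPM. Snap25, a membrane SNARE chosen after its values were seen, was at 1103, 1029, 1210 and 1267 CPM against 4423, 2899, 3561 and 2756 CPM (log2 difference -1.55 ± 0.20, edgeR adjusted p = 3.88e-06). Snap25 was still found in 57 of 58 positive and 36 of 37 negative cells, so it separated the sides by level.

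Not every release gene followed. Rph3a, an effector of Rab3 chosen after its values were seen, was at 550 ± 37.6 against 342 ± 54.8 CPM (log2 difference 0.64, edgeR adjusted p = 0.0144). Syt1, likewise chosen, was at 99.2 ± 34.7 against 117 ± 52.5 CPM and did not pass (edgeR adjusted p = 0.706), with 1.08 to 2.09 CPM in type I. The vesicular glutamate transporter Slc17a6, also chosen after its values were seen, was at 140 ± 35.2 against 257 ± 63.3 CPM (log2 difference -0.93 ± 0.23, edgeR adjusted p = 0.00388), beside 19.8, 160 and 207 CPM in types IA, IB and IC.

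Of 14 tested calcium-binding protein genes 9 were lower and 2 higher, with a median log2 difference of -0.94, and without mouse 3 the lower count was 5. With the low-count filter off 9 of 22 were lower and 2 higher. S100b was at 162 ± 79.4 against 689 ± 125 CPM (log2 difference -2.10 ± 0.25, edgeR adjusted p = 1.44e-06). Cabp1, a calmodulin-like regulator of calcium channels, was at 33.1 ± 14.5 against 177 ± 53.8 CPM. Vsnl1, a neuronal calcium sensor, was at 62.0, 85.7, 102 and 62.7 CPM against 533, 40.0, 418 and 627 CPM, and mouse 2 went against the other mice. With DESeq2 its adjusted p was 0.0674, past the threshold in the edgeR test only. Necab1, an EF-hand protein of neurons, was higher, at 93.9 ± 21.3 against 32.1 ± 26.5 CPM, and type I cells held 0.172 to 0.590 CPM.

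Peptides and granins were split, with 2 of 9 tested genes higher and 4 lower, and 2 lower without mouse 3. The shares over all genes tested were 13.3% higher and 14.5% lower, and 9 genes are few to set against them. Npy, a peptide of sympathetic and other neurons, was at 379, 674, 389 and 508 CPM against 44.8, 0, 85.9 and 33.0 CPM (log2 difference 3.05 ± 0.31, edgeR adjusted p = 2.66e-07). It stood at 3.11 to 3.34 CPM in type I and at 223 CPM in putative neurons, which also carried satellite glia markers. Npy was seen in 26 of 58 positive and 7 of 37 negative cells, and after thinning in 16 of 52 and 3 of 33. When cells were called positive after thinning to 4867 UMIs, its difference was 0.69 (edgeR adjusted p = 0.485). That call used the draw, of 20, that kept the fewest positive cells (44 of 52, against a median of 49), so it is the most extreme draw. Chgb, a granin of secretory granules, was at 80.6 ± 15.5 against 359 ± 90.4 CPM, and Scg2, another granin, at 82.5 ± 22.6 against 41.1 ± 49.8 CPM. The call of Scg2 (log2 difference 1.59) was lost without mouse 1 (1.15, edgeR adjusted p = 0.231), without mouse 3 (1.10, edgeR adjusted p = 0.220) and with DESeq2 (adjusted p = 0.138). Tac1, which encodes substance P and was chosen after its values were seen, had 128 UMIs in 2 positive cells of mouse 4 and 87 UMIs in 7 negative cells.

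Receptors and growth-factor genes were thinly covered. Of 5 tested neurotrophic signalling genes 3 were lower and 1, Ngfr, higher, and without mouse 3 only 1 was lower. These are few to set against the 14.5% lower and 13.3% higher of all genes tested. With the low-count filter off 2 of 18 were lower and 3 higher. Ntrk3, the neurotrophin-3 receptor, was at 65.5 ± 16.5 against 163 ± 44.2 CPM (log2 difference -1.37, edgeR adjusted p = 0.00247, and 0.0589 with DESeq2). Ntrk2, the BDNF receptor, was at 124 ± 35.7 against 193 ± 89.6 CPM (log2 difference -0.68, edgeR adjusted p = 0.0471). This call was lost in 9 of 14 alternatives, among them without mouse 1, 2 or 3 (edgeR adjusted p = 0.419, 0.124 and 0.183). Lifr, a cytokine receptor, was at 87.2 ± 10.8 against 176 ± 43.7 CPM (log2 difference -1.10). Its call was lost without mouse 3 (-0.91, edgeR adjusted p = 0.0916), with DESeq2 (adjusted p = 0.122) and with Prph called at a fixed depth (edgeR adjusted p = 0.0697). Among transmitter receptors, Gria2, an AMPA receptor subunit, was at 78.2 ± 28.1 against 209 ± 124 CPM (log2 difference -1.49). Besides the loss without the Fabp7 cells given above, its call was lost without mouse 3 (-0.87, edgeR adjusted p = 0.156) and with DESeq2 (adjusted p = 0.0889). Glrb, a glycine receptor subunit, was at 61.1 ± 13.6 against 221 ± 87.7 CPM.

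Of 16 tested transcription factor genes 5 were higher and 2 lower, and without mouse 1 or without mouse 3 none was lower. The list holds Islr2, which is a membrane protein of growing axons and no transcription factor, and Islr2 was among the genes that were higher, at 151 ± 32.1 against 50.8 ± 34.6 CPM. Of 13 tested adhesion genes 2 were higher and 3 lower, and 1 and 1 without mouse 1 or without mouse 3. Over all genes tested 13.3% were higher and 14.5% lower. The 2 higher adhesion genes and the 2 lower transcription factor genes were near those shares. Alcam, an adhesion molecule of the immunoglobulin family, was at 210 ± 16.4 against 89.4 ± 48.6 CPM. Its call was lost with Prph called at a fixed depth (log2 difference 0.76, edgeR adjusted p = 0.0829). Thy1, a surface glycoprotein of mature neurons, was at 89.0 ± 15.0 against 411 ± 132 CPM, and Pcdh7, a protocadherin, at 50.7 ± 8.41 against 217 ± 120 CPM. Pcdh17, a protocadherin that type I cells held at 1.12 to 1.30 CPM, was at 38.9 ± 18.2 and 83.9 ± 18.3 CPM on the sides (log2 difference -1.26, edgeR adjusted p = 0.0245). With DESeq2 it did not pass (adjusted p = 0.225).

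Housekeeping groups moved in opposite directions. Of 76 nuclear genes of oxidative phosphorylation, all tested, 37 were lower on the positive side and none higher, with a median log2 difference of -0.53, and without mouse 1 the count was 13 and without mouse 2 it was 16. Cox5a, a subunit of cytochrome oxidase, was at 648, 637, 700 and 947 CPM against 2306, 1500, 1637 and 1535 CPM (log2 difference -1.26 ± 0.20, edgeR adjusted p = 6.11e-05). Of 12 tested mitochondrially encoded genes 11 were lower, with a median of -0.89, and without mouse 3 the count was 6 of 11 tested. Atp1b1, a subunit of the sodium pump, was at 655 ± 62.6 against 2059 ± 515 CPM.

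Of 76 cytosolic ribosomal protein genes 60 were higher on the positive side and none lower, with a median of 0.64, and the count was 28 without mouse 1 and 21 without mouse 3. Rpl10 was at 1447, 1421, 1442 and 1467 CPM against 570, 860, 492 and 1056 CPM, tight on the positive side and spread on the negative. Genes of this family have many pseudogene copies, and how reads shared among them were counted is not stated. The negative sums of mice 2 and 4, with 5 cells each, lay nearest to the positive sums for Rpl10.

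Immediate early and dissociation genes were higher on the positive side in 11 of 22 tested genes and lower in none, with a median of 0.73. The count was 5 without mouse 1 and 6 without mouse 3. Fos was at 1758, 1996, 1372 and 1630 CPM against 730, 420, 738 and 1040 CPM (log2 difference 1.19 ± 0.21, edgeR adjusted p = 0.000205), and Jun, its partner in the AP-1 factor, at 999 ± 277 against 472 ± 202 CPM. Putative neurons, the class nearest to the positive side in satellite glia markers, stood at 1231 CPM for Fos and 879 CPM for Jun, against 538 to 587 and 426 to 495 CPM in type I. Of 7 tested genes of the axonal injury response 5 were higher, 3 without mouse 1.

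**Figure D4:**
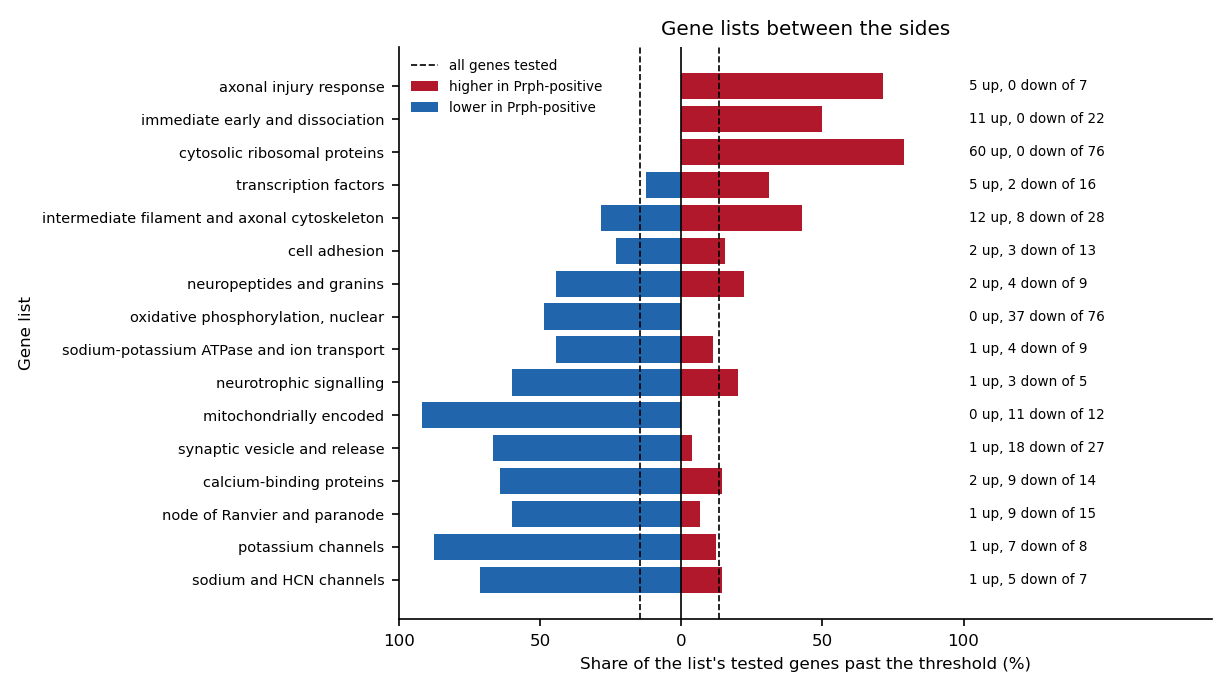
Bars give the percentage of tested genes in each function list that were higher (red, to the right) or lower (blue, to the left) on the positive side, with the counts at the right. Dashed lines mark the shares over all genes tested, 13.3% and 14.5%, so that the lists of ribosomal, oxidative phosphorylation, synaptic and channel genes can be read against them.

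Each side was also set beside the type I cells, as a description only, because the type labels may rest on genes of these same cells and the 12 type I sums serve both contrasts. Of 12752 genes tested in that fit (without Prph), positive cells differed from the mean of types IA, IB and IC in 3760 (29.5%), 1565 higher (12.3%) and 2195 lower (17.2%). Negative cells differed in 897 (7.03%), 470 higher (3.69%) and 427 lower (3.35%). Those directions depend on the method. DESeq2 gave 2228 higher and 1425 lower for positive cells and 752 higher and 272 lower for negative cells. Whether its scaling or another part of the method made this difference was not tested. The median log2 difference over all genes was -0.18 and -0.10 with edgeR and 0.01 and 0.02 with DESeq2. Without mouse 1 the negative cells had 282 genes higher, and without mouse 3 they had 252 lower. Depth, cell number and glial RNA differ between the sides as given above, and their part in these counts was not tested.

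The levels of single genes beside type I took several forms. For the positive and negative cells the log2 differences from type I were -3.03 and 0.26 for Scn1a, -2.83 and 0.05 for Kcna2, -3.01 and 0.36 for Clec2l and -3.35 and -0.83 for Syt2. They were 9.76 and 5.41 for Dupd1, 8.81 and 5.87 for Myl1, 8.71 and 5.82 for Nog and 8.00 and 6.15 for Kcnc4, genes that both sides held above type I. They were 2.52 and 5.74 for Kcnc2 and -1.87 and 7.98 for Pcp4, genes whose level on the negative side was above both the positive side and type I.

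The negative side was not uniform. Cells were laid out by Pcp4 and Dupd1 after their values were seen, so what follows is a description without a test, over cells and not mice. Of the 37 negative cells 17 held Pcp4 (7, 1, 8 and 1 in mice 1 to 4, median depth 19154 UMIs), 7 held Dupd1 (1, 1, 3 and 2, median depth 5246) and 13 held neither (5, 3, 3 and 2, median depth 13100). No negative cell held both.

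The 7 negative cells with Dupd1 lay near the positive side in some genes and not in others. Summed, they held Myl1 at 5289 CPM, Th at 165, Gata3 at 470, Npy at 564, Apoe at 22684 and Snap25 at 870 CPM, and the 58 positive cells held these at 8483, 181, 543, 457, 11681 and 1175 CPM. Slc17a6 had no UMI in the 7 cells (exact upper limit 86.7 CPM) and was at 136 CPM in the positive cells, Lypd1 was at 188.1 against 71.4 CPM and Ina at 47.0 against 187.7 CPM. The median depth of the 7 cells was the lowest of the 3 kinds, and 42541 UMIs stand behind all their values.

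The 17 cells with Pcp4 held it at 2363 CPM, with Lypd1 at 1415, Snap25 at 4408, Slc17a6 at 354 and Kcnb2, a delayed-rectifier potassium channel chosen after its values were seen, at 367 CPM. They held no Dupd1, Th or Plk5 UMI among 389312 UMIs, where the exact interval for 0 counts reaches 9.48 CPM, and Myl1 at 406 and Gata3 at 53.9 CPM. Kcnb2 was at 4.98 CPM in positive cells and at 0.932 to 2.06 CPM in type I, so its summed level was above both. It was found in 9 of the 17 cells, at a median of 65.6 CPM per cell, so a few cells carried that sum. The 13 cells with neither held Calb2 at 5678, Lypd1 at 1035, Snap25 at 3753, Kcna2 at 459, Slc17a7 at 373 and Nefl at 2462 CPM, with Myl1 at 976 and Gata3 at 173 CPM. Their medians per cell were far lower for Calb2 (575 CPM) and Lypd1 (229 CPM), so a few cells carried those sums, and closer for Snap25 (3371 CPM), Kcna2 (286 CPM), Slc17a7 (319 CPM) and Nefl (2214 CPM).

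**Figure D5:**
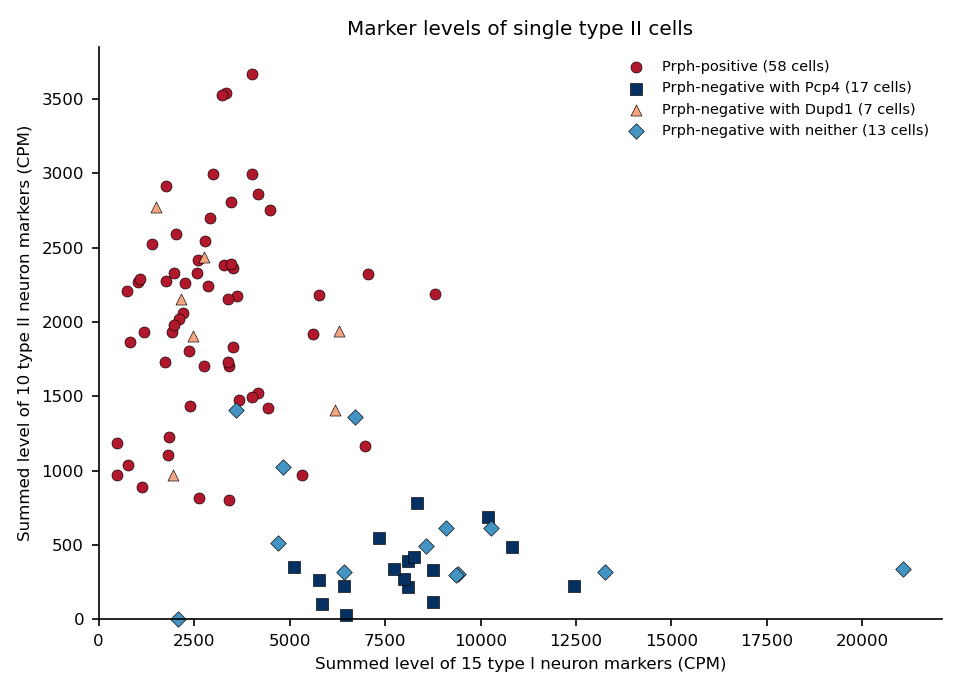
Each point is 1 type II cell, with the CPM of type I markers against the CPM of type II markers, coloured as positive (58), negative with Pcp4 (17), negative with Dupd1 (7) and negative with neither (13). Positive cells lie between 802 and 3668 CPM of type II markers with a median of 2165, negative cells between 0 and 2772 with a median of 419, and their medians of type I markers are 2829 and 7352 CPM.

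Over single cells the markers overlapped more than the sums did. The type II markers ran from 802 to 3668 CPM in positive and from 0 to 2772 CPM in negative cells, and the type I markers from 475 to 8816 CPM and from 1493 to 21057 CPM. The positive side was not uniform either. The cell with 103 Prph UMIs, in mouse 4, was the only positive cell without a Dupd1 UMI. It also had no Myl1 UMI and stood at 815 CPM of type II markers, and it made up 16.2% of the positive sum of that mouse. In mice 2 and 4, with 5 negative cells each, 1 cell made up 35.6 and 31.6% of the negative sum. Because Prph was read from few molecules per cell, each side is a count threshold and not a cell type.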

How the data were processed

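Droplet RNA sequencing of cochlear neurons from 4 mice was analysed. The submitters' processing notes name Cell Ranger 2.0.1, Seurat 1.4 and mm10 (GRCm38), with no word on cell filters. What the authors deposited are raw counts, 1 table for each mouse, of UMIs for 18143 gene symbols in each cell, and a cell annotation that was used unchanged. The sources used here do not say how its labels were assigned. A deposited normalized table was not used here.

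UMI counts were summed per mouse and side (8 sums) and fitted by the quasi-likelihood method of edgeR 4.0.16 (R 4.3.3), after filterByExpr and TMM scaling and with mouse as the blocking factor. Sums pair because both sides come from the same animal. Correlations of the paired deviations were 0.0265 to 0.0716. The biological coefficient of variation was 0.164, with 3 residual and a median of 20.9 prior degrees of freedom. Type I contrasts used a fit of 20 sums. The threshold was a Benjamini-Hochberg adjusted p of 0.05 over all genes tested, and every p is two-sided. Prph was left out of all counts. CPM is relative to all UMIs of a sum, and SEs come from the estimate and its F statistic. Intervals are exact at 95% and cover counting error only. The code was tested on simulated counts.

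Members and all 34 gene lists, 11 of them cell markers, were chosen with earlier results of these data known. Named genes are the 15 highest and 15 lowest differences among called genes with at least 20 UMIs on the higher side and 1 direction in all mice (Gm and Rik models and genes starting with mt- skipped), up to 4 genes per list, and all type I and type II markers, with exceptions named as such. This gave 106 genes with Prph, and genes named as chosen after their values were seen stand outside it. Some of these genes are not reported here. Alternatives were DESeq2 1.42.0, library totals, no low-count filter, no replicate block, each mouse left out, 2 or more Prph UMIs, Prph called at or cells thinned to 4867 UMIs, cells with 3 or more Fabp7 UMIs or the deepest cells left out, and type I sums in the fit. Leaving out the cell highest in Prph was added after seeing the data. Prph called at 4867 UMIs used the draw, of 20, that kept the fewest positive cells (44 of 52). Coordinates are from GENCODE M21.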

Additional observations from a re-analysis of the deposited data

Results flagged for a closer look

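Among 137 sets of 4 mouse values 12 held a value far from the other 3 (Dixon's test at 95%), and chance alone gives about 1 in 20 sets. In 8 named genes 1 mouse differed from the rest in its log2 difference, positive minus negative, on the log2 CPM scale (prior count 2). The odd mouse had the smaller difference for Rbfox3 (-1.84, the others -3.18 to -2.97), Nat8l (-0.60, the others -3.24 to -3.01), Ntrk3 (-0.15, the others -1.60 to -1.39), mt-Nd1 (-0.37, the others -1.40 to -1.26) and Rpl3 (0.19, the others 1.25 to 1.34). It had the larger difference for Apoe (2.79, the others 2.10 to 2.16), Cacna2d3 (2.79, the others -0.19 to 0.19) and Glrb (-2.52, the others -1.42 to -1.21).

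Depth stood apart in mouse 1, whose negative cells had a median of 24352 UMIs (the other mice 10319 to 10758) and 5893 genes (3602 to 3791). In mouse 2 the summed fibroblast markers of the negative side were at 820 CPM (the other mice 297 to 304) and the summed vascular markers of the positive side at 135 CPM (41.7 to 55.1).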

How the results depend on the processing

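The count of 763 genes that differed between the sides was 756 with library totals, 912 without the low-count filter, 784 without the replicate block, 726 with 2 or more Prph UMIs and 752 without the cell highest in Prph. It was 314 with DESeq2, 421 with Prph called at a fixed depth, 233 with equal UMIs per cell, 330 without cells holding 3 or more Fabp7 UMIs, 487 without the deepest cells and 1748 with type I sums in the fit, and leaving out 1 mouse gave 334 to 811. Fewer sums, cells or UMIs enter several of these, and the cause of the differences was not tested. The count at a fixed depth comes from the draw that kept the fewest positive cells and not from a typical draw. In each of these 15 alternatives all of the 763 genes that could be tested had the same direction. Of 392 tested with equal UMIs per cell 222 were called again in that direction, and of 515 tested without the Fabp7 cells 318. Against type I, positive cells had 2455 genes instead of 3760 without the Fabp7 cells, and leaving out 1 mouse gave 2896 to 3402, and 624 to 778 instead of 897 for negative cells.

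Of the 106 named genes, which include Prph, 92 others passed the threshold, and 68 of these passed in every alternative that tested them. Of 1370 gene values under alternatives 25 changed sign, in genes that did not pass in the main comparison. For Cacnb3 (0.00) they were -0.020 with DESeq2, -0.010 with library totals, -0.097 without the replicate block, -0.0011 with 2 or more Prph UMIs, -0.088 without the deepest cells, -0.13 with type I sums and -0.031 without the cell highest in Prph, and leaving out 1 mouse gave -0.16 to 0.15. For Tpm1 (-0.05) they were 0.028 with DESeq2, 0.0091 without the replicate block, 0.075 without the deepest cells and 0.0026 with type I sums, and leaving out 1 mouse gave -0.19 to 0.13. For Rgma (-0.01) they were 0.095 with DESeq2 and 0.0057 without the filter. For Hbb-bs (-0.04) they were 0.043 without the replicate block and 0.037 with Prph called at a fixed depth, and leaving out 1 mouse gave -0.078 to 0.051. For Hba-a1 (0.06) they were -0.32 with Prph called at a fixed depth and -0.16 without the Fabp7 cells, and leaving out 1 mouse gave -0.030 to 0.16. Leaving out 1 mouse gave -0.062 to 1.03 for Coch (0.73), and Pmp22 (-0.27) was at 0.026 without the Fabp7 cells.

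With 5 to 20 cells behind each sum, genes with few UMIs in the sums could not be tested, and single cells set some sums.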
